A study of Homo sapiens with 12 samples.

Results

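The data described here are the 6 RNA sequencing libraries labelled MCF10A among the 12 libraries of a study of the methyltransferase KMT9a. MCF10A is a non-transformed line of human breast epithelial cells. The 6 libraries were chosen by their labels: 3 received control siRNA and 3 received siRNA against N6AMT1, the gene that encodes KMT9a, all at passage 13. The other 6 libraries came from PC-3M, a metastatic derivative of the prostate cancer line PC-3, with the same pair of siRNA groups at passage 11. All 12 were prepared from total RNA, and the labels name no further allele or agent and do not give the siRNA sequences, the dose or the time after transfection. The labels call the samples biological replicates without saying whether separate cultures were used, so each p-value reflects the spread among these libraries, which may be technical. The title of the series concerns prostate cancer that resists castration, its metabolism and its growth; MCF10A is a cell line of another tissue.

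KMT9 is an enzyme of a catalytic subunit, KMT9a (N6AMT1), and a partner subunit, TRMT112, that also serves other methyltransferases. It places a single methyl group on lysine 12 of histone H4, a mark reported at promoters of active genes, and the catalytic subunit is also known to methylate a translation termination factor. MCF10A cells are known as a basal-like epithelial culture: they normally make keratins 5, 14 and 17, laminins and the integrins of hemidesmosomes. They lack the CDKN2A and CDKN2B locus.

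The libraries were shallow, so their content is given before any change. They held 181064 to 255642 read ends in genes (2 ends to a read pair), against 40236221 to 53401602 in the PC-3M libraries. Of 24359 gene symbols, 2442, 2327 and 2594 were above 0 in the control libraries and 2307, 2298 and 2442 in the KMT9a siRNA libraries; 19429 symbols were at 0 in all 6. At least 10 read ends were found for 1059, 1075 and 1078 genes in the controls and for 965, 770 and 1121 genes after KMT9a siRNA. The groups overlapped in both measures. The mean number of genes above 0 was 105 lower after KMT9a siRNA (exact permutation test, two-sided p = 0.3, where 3 against 3 libraries cannot give less than 0.1).

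At equal depth the other line would show far more genes. If each MCF10A library had drawn its number of read pairs at the gene shares of the PC-3M controls, 10022 to 10691 genes would have been above 0. The measured reads were instead held by few genes: genes with at least 10 read ends took 97.8% to 98.6% of them, and the 100 most abundant genes took 62.1% to 73.6%. These 100, and the 10 most abundant genes of each library, were ranked within that library. The latter 10 took 24.5%, 24.6% and 24.2% of read ends in the controls and 29.3%, 32.4% and 27.8% after KMT9a siRNA. Every KMT9a siRNA library was above every control in that share, by 5.42 percentage points on average, or 1.34 when every transcript row was counted (exact permutation test, two-sided p = 0.1, the smallest that 3 against 3 allows).

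**Figure D1:**
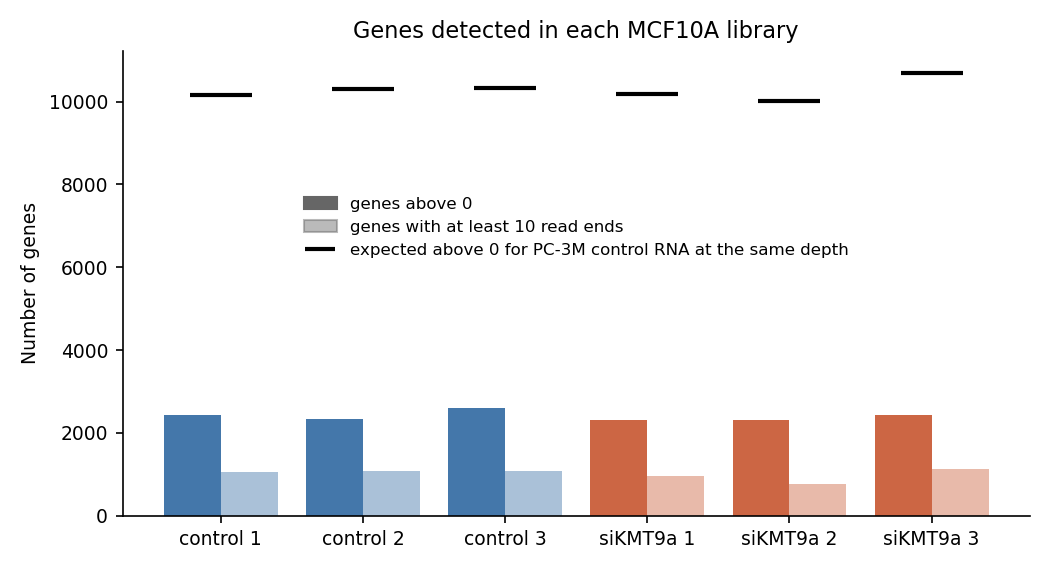
Number of genes (vertical axis) in each of the 6 MCF10A libraries: dark bars are genes above 0, pale bars are genes with at least 10 read ends, and black lines are the numbers of genes above 0 computed for PC-3M control RNA at the same depth. The 6 libraries hold 2298 to 2594 genes above 0, against the 10022 to 10691 computed.

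The densest rows were not whole genes but a pair of short intervals within DDX5, which encodes an RNA helicase of splicing and transcription. They carry the names MIR3064 and MIR5047, after the miRNA hairpins annotated there. They are shown because they ranked 1 and 2 of all symbols in CPM (read ends scaled to a common library total) per kilobase of listed length, at 56794 and 29655. In the RefSeq annotation of GRCh38.p14 the MIR3064 hairpin lies on the minus strand at chr17:64500774-64500839, and the mature sequence of miR-5047 at chr17:64501230-64501250 on the same strand. No exon of the 16 protein-coding DDX5 transcripts in GENCODE release 29 overlapped that hairpin or that mature sequence. The counted intervals are longer, at 83 bases for MIR3064 and 99 for MIR5047. Their full length was not compared with the exons. In the hairpin the capitals mark both mature arms, and in the mature miRNA they mark the seed (bases 2 to 8).
MIR3064 hairpin: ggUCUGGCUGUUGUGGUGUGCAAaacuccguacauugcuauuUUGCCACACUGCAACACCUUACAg
hsa-miR-5047: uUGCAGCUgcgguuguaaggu

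The MIR3064 interval held 1188, 1198 and 935 read ends in the controls and 788, 646 and 1117 after KMT9a siRNA. The groups overlapped. The MIR5047 interval held 715, 682 and 645 in the controls and 629, 279 and 725 after KMT9a siRNA, and these groups overlapped as well. Relative to the read ends of DDX5 in the same library, the MIR3064 interval held 10.5% to 20.2% and the MIR5047 interval 4.55% to 12.2%. In the PC-3M libraries the same shares were 1.98% to 2.32% and 1.90% to 2.52%. Reads of a DDX5 transcript and reads of a miRNA precursor cannot be told apart here. These values are therefore levels of the interval, not of a mature miRNA.

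Other miRNA intervals inside genes did not move one way. MIR4657, in the gene of the DNA-binding protein PURB, held 8.27% to 16.7% of the read ends of PURB, against 0.319% to 0.738% in PC-3M. MIR3661, on the opposite strand to the phosphatase subunit gene PPP2CA, held 9.46% to 24.3%, against 2.59% to 3.85%. MIR1282, opposite to SERF2, held 2.46% to 3.38%, against 15.8% or more in PC-3M.

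By mean CPM over the 6 libraries, the 10 most abundant genes were PABPC1, EIF4G2, HNRNPA2B1, DDX5, SRSF2, SRSF1, PCBP2, EIF1, HNRNPA3 and UBE2D3. PABPC1, the cytoplasmic protein that binds poly(A) tails, held 8911, 10572 and 10490 read ends in the controls and 13255, 11805 and 18020 after KMT9a siRNA, between 4.62% and 7.05% of a library. EIF4G2, a translation initiation factor, held 8904, 9652 and 10293 in the controls and 8997, 7746 and 11755 after KMT9a siRNA. HNRNPA2B1, a nuclear RNA-binding protein, held 6761, 7406 and 6942 in the controls and 8857, 5979 and 10420 after KMT9a siRNA. Of the others, SRSF2 and SRSF1 are splicing factors, PCBP2 binds poly(C), EIF1 is an initiation factor, HNRNPA3 binds nuclear RNA and UBE2D3 is a ubiquitin-conjugating enzyme. By CPM per kilobase PABPC1 was first of these 10 at 20597, followed by EIF1 at 12471 and EIF4G2 at 11885, and HNRNPA3 was last at 2295.

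In the other line these genes ranked lower. None of the 10 most abundant genes of the MCF10A libraries was among the 10 most abundant of the PC-3M controls, 3 of the 100 were shared and 184 of the 1000. In the PC-3M controls the 10 had a median rank of 265.5, from 27 for EIF4G2 to 928 for PCBP2, and the 100 most abundant had a median rank of 863. Over the 1032 genes with at least 60 read ends in all, the rank correlation of the level with that in the PC-3M controls was 0.31 (Spearman, across genes, which are not independent replicates and share the gene's length in both lines).

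Gene groups showed the same contrast. The genes of hnRNP proteins, which package and splice nuclear RNA, took 11.0% to 13.9% of read ends, against 0.614% to 0.655% in PC-3M. The SR proteins and TRA2 factors, which select exons, took 5.14% to 5.83%, against 0.205% to 0.236%. Translation initiation factors took 7.76% to 9.44%, against 1.17% to 1.56%, and DEAD-box helicases 3.73% to 4.33%, against 0.482% to 0.524%. These groups were formed from gene symbols after the most abundant genes had been seen.

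The contrast was uneven within the groups. Of the 23 hnRNP genes for which the PC-3M control level would have given at least 10 read ends in every library, 16 lay above that level in all 6 libraries, 9 of them by more than 10 times, and 2 lay below it in all 6. Of 11 such SR and TRA2 genes, 7 lay above and 3 below. Of 22 DEAD-box genes, 4 lay above and 17 below, and of 41 translation initiation factors, 6 lay above and 33 below. Over all genes, 4386 had at least 10 read ends by this measure, of which 276 (6.29%) lay above and 3818 (87.0%) below, 1774 of them at 0 in all 6 libraries. The lines differ in tissue and the tables were scaled separately, so this sets shares of reads side by side and tests nothing.

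Genes that every cell uses were among the missing. GAPDH, an enzyme of glycolysis, held 13, 0 and 16 read ends in the controls and 7, 7 and 13 after KMT9a siRNA, where the PC-3M control level of 4319 CPM would have given 782 to 1104. ACTB, cytoplasmic actin, held 5, 0 and 11 in the controls and 6, 4 and 4 after KMT9a siRNA, where that level would have given 112 to 158. FTL, the light chain of ferritin, VIM, vimentin, and TBP, the TATA-binding protein, were at 0 in all 6 libraries. Of 41 genes of this list, 40 had at least 10 read ends by the PC-3M measure, of which 37 lay below it in all 6 libraries and 34 by more than 10 times. The 37 were 92.5% of the 40, against 87.0% below over all such genes.

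Pathway lists had the same shape. The genes of cytosolic ribosomal proteins took 0.116% to 0.355% of read ends, against 6.13% to 6.87% in PC-3M, and 71 of 72 lay below the PC-3M level. The exception was RPS19, with 134, 185 and 162 read ends in the controls and 143, 510 and 207 after KMT9a siRNA. All 20 glycolysis genes lay below, with 0.0117% to 0.0182% of read ends against 2.12% to 2.55%. Of 37 genes of oxidative phosphorylation 36 lay below and 15 (40.5%) were at 0. Over all genes with at least 10 read ends by this measure, 87.0% lay below and 40.4% were at 0. The exception was ATP5G3, a subunit of the membrane ring of ATP synthase, with 752, 884 and 798 read ends in the controls and 573, 991 and 642 after KMT9a siRNA.

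Genes of proliferation could hardly be read. Of 30 mitosis genes, 14 were at 0 in all 6 libraries, and the list summed to 6 to 8 read ends in the controls and 6 to 16 after KMT9a siRNA. Of 32 replication genes, 20 were at 0, and MCM4, a subunit of the replicative helicase, held most of the reads of the list. Over all genes, 19429 of 24359 symbols were at 0. By the PC-3M measure 8 genes of each list had at least 10 read ends. Of these, 8 mitosis and 7 replication genes lay below it, against 87.0% of all such genes, and 1 of each list was at 0, against 40.4%. Collagen chains, 44 genes, summed to 0 to 5 read ends, and integrin subunits, 30 genes, to 0 to 4. Both of these lists were added after the data had been seen.

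**Figure D2:**
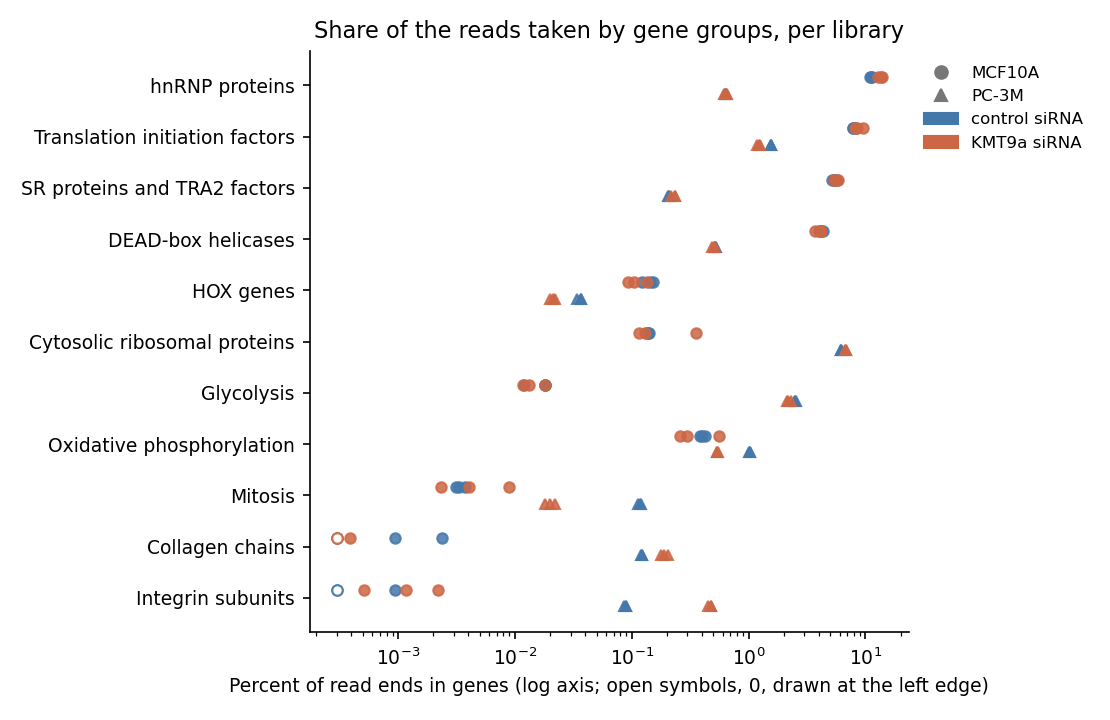
Percent of read ends in genes (horizontal log axis) taken by 11 gene groups in each MCF10A library (circles) and PC-3M library (triangles), with control siRNA in blue and KMT9a siRNA in orange; open symbols are libraries at 0. The hnRNP genes lie at 11.0% to 13.9% in MCF10A and 0.614% to 0.655% in PC-3M, and the ribosomal protein genes at 0.116% to 0.355% and 6.13% to 6.87%.

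The markers of the labelled cell type were largely absent. Of 27 markers of basal breast epithelium, 18 were at 0 in all 6 libraries, among them the keratins KRT5, KRT6B, KRT15 and KRT16, the laminin chains LAMA3 and LAMB3, the hemidesmosome integrins ITGA6 and ITGB4, CD44, CDH3 and SERPINB5. Of all 24359 symbols 19429 were at 0, so that count alone does not set the list apart. Of the 5 markers with at least 10 read ends at the PC-3M control level, 4 were at 0, against 40.4% of all such genes. The whole list summed to 371 to 500 read ends in the controls and 328 to 756 after KMT9a siRNA. KRT17, a basal keratin, held 126, 193 and 192 read ends in the controls and 430, 84 and 299 after KMT9a siRNA, and was near 0 in PC-3M. KRT14 held 78 read ends in the second KMT9a siRNA library, 1 in the first and 0 in the other 4. TP63, the transcription factor of basal epithelium, held 0 to 4. At their PC-3M control level, CD44 would have had 66.0 to 93.2 read ends in a library and LAMA3 45.3 to 64.0. The defining markers did not show MCF10A cells, and whether the reads come from RNA of these cells, or are all the reads of the libraries, could not be checked from the table. Each level and change here describes the libraries as labelled, not the cell line.

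Markers of other cells gave no better name. CDKN2A and CDKN2B were at 0 in all 6 libraries, where the PC-3M control level would have given 19.9 to 28.1 and 24.1 to 34.0, but so were 40.4% of all genes for which it would have given at least 10. Of 15 markers of PC-3M and prostate, 13 were at 0, with a summed level of 4 to 15 read ends in the controls and 3 to 8 after KMT9a siRNA. Of 14 luminal breast markers 7 were at 0, of 12 leukocyte markers 11, and all 8 endothelial and 6 red cell markers. Over all genes, 19429 of 24359 symbols were at 0. The summed levels were 6 to 21 and 4 to 24 read ends for the luminal list and 0 and 0 to 2 for the leukocyte list. Of 15 fibroblast and smooth muscle markers 12 were at 0, and SPARC held nearly all the reads of the list, which summed to 210 to 264 in the controls and 43 to 68 after KMT9a siRNA.

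The list of HOX genes, transcription factors of body position, was also added after the data had been seen. Of its 39 genes, 21 were at 0 in all 6 libraries and 8 (20.5%) averaged at least 10 read ends, against 4.24% of all genes. HOXB13 was at 0 in all 6, where its PC-3M control level of 287 CPM would have given 51.9 to 73.3. HOXA5 held 53, 60 and 51 in the controls and 52, 32 and 70 after KMT9a siRNA, HOXB9 held 41, 40 and 45 and then 37, 36 and 38. Both genes were below 1 CPM in the PC-3M controls. The groups overlapped for HOXA5; for HOXB9 they did not overlap in read ends and overlapped once scaled for library composition.

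The targeted gene could not be read. N6AMT1 (chr21:30244513-30257693 in hg19, minus strand) was at 0 in all 6 MCF10A libraries. The PC-3M control level of 12.2 CPM would have given 2.21 to 3.12 ends, and a count of 0 in one library allows up to 23.5 to 33.1 CPM at 3 read pairs (counting error only). As genes that every cell uses were also at 0, the zeros of N6AMT1 need not reflect a low level. TRMT112, the partner subunit, held 2, 1 and 1 read ends in the controls and 1, 0 and 2 after KMT9a siRNA, where its PC-3M control level would have given 29.6 to 41.7. The knockdown was therefore not checked in these libraries. In PC-3M the siRNA groups differed, with N6AMT1 at 12.2 CPM in the controls and 2.65 CPM after KMT9a siRNA.

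The libraries were then compared with each other by a chi-square test of read pairs over genes with at least 20 pairs in both together. Pairs were taken as read ends halved and rounded up, and the statistic depends on that step. Single read ends were not compared in this way, and genes with fewer pairs were left out. Control replicates 1 and 2 differed by less than the sampling noise (chi-square over degrees of freedom 0.841, p = 0.9997), whereas control 3 differed from control 1 (1.43, p = 3.4e-15) and from control 2 (1.14, p = 0.0029). Controls 1 and 2 were therefore counted as 1 sample in each mean ± SD below, with n = 2 for the controls. Libraries 1 and 3 of KMT9a siRNA stood 4.76 to 7.53 from the controls and 2.82 from each other. The second KMT9a siRNA library stood 17.6 to 27.3 from each of the other 5.

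**Figure D3:**
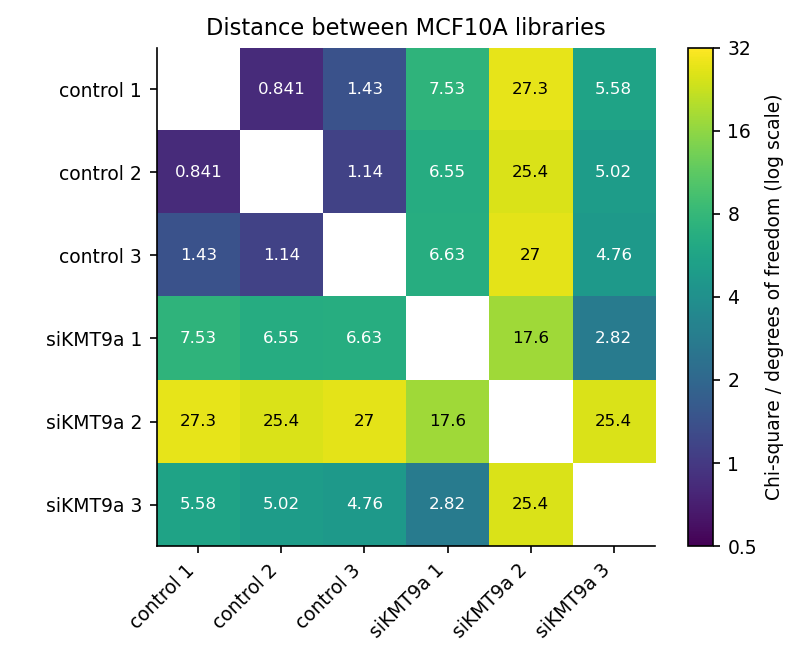
Chi-square over degrees of freedom between each pair of MCF10A libraries, on a log colour scale. The 3 controls lie at 0.841 to 1.43 from each other, and the second KMT9a siRNA library lies at 17.6 to 27.3 from the other 5.

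The second KMT9a siRNA library was the highest of the 6 for 385 and the lowest for 443 of the 1049 genes tested, together 78.9% of them. Each other library was highest or lowest for 18.1% to 29.7%. Transcripts for which it was highest had a median length of 3417 bases and a median GC content of 47.0%, and those for which it was lowest 4808 bases and 44.0%. Such gaps were not particular to it. In the third KMT9a siRNA library these values were 4878 bases and 44.8%, and 3152 bases and 47.5%. In every other library the transcripts for which it was highest were the longer ones. The GC gap was widest in the first KMT9a siRNA library, in the opposite direction. In controls 1 and 2 it had the same direction as in the second KMT9a siRNA library. The TMM scaling factor of the second KMT9a siRNA library was 0.69, against 0.99 to 1.12 in the others.

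Single genes show how far it stood apart; these were chosen after their values were seen. USP7, a deubiquitinase, held 102, 132 and 136 read ends in the controls and 80, 0 and 163 after KMT9a siRNA. CLTC, the clathrin heavy chain, held 100, 113 and 125 in the controls and 50, 0 and 117. SLC6A6, the taurine transporter, held 2200, 2381 and 2126 in the controls and 874, 92 and 1842. Each was lowest in the second KMT9a siRNA library. EIF4E2, a cap-binding protein, went the other way, with 215, 240 and 218 in the controls and 257, 926 and 292. Whether depth, RNA quality or the treatment had a part in this was not tested.

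The comparison of KMT9a siRNA with control siRNA asked which genes changed in a non-malignant line. It was made with limma on a log2 scale, after TMM scaling and a pseudocount of 1, over the 1049 genes with enough reads. It called 5 genes (0.477% of those tested) at an adjusted p under 0.05: EFNB2 was higher (0.0953%), and SPARC, PTPRF, SLC4A7 and TRIM8 were lower (0.381%). The quasi-likelihood test of edgeR on the recovered read ends called these 5 and SEMA3D (0.572%). None of the 1049 genes passed in limma once control replicates 1 and 2 were averaged, with 72 at an unadjusted p under 0.05, and none passed when any single control or the first KMT9a siRNA library was left out. CPM values below are TMM-scaled. In a bulk sample, fewer cells that make a transcript and less of it per cell cannot be told apart.

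EFNB2 (chr13:107142079-107187388 in hg19, minus strand) encodes ephrin-B2, a membrane-bound ligand of Eph receptor kinases. It held 66, 69 and 53 read ends in the controls and 167, 143 and 224 after KMT9a siRNA. Every KMT9a siRNA library was above every control. The level was 268 ± 55.9 CPM (SD, n = 2) in the controls and 966 ± 175 (SD, n = 3) after KMT9a siRNA, and the fit of 3 against 3 libraries gave 1.74 on the log2 scale (SE 0.26, limma adjusted p = 0.039). All limma values of the genes below come from that fit, and averaging controls 1 and 2 took the adjusted p to 0.27 to 0.36 for the 5 called genes.

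SPARC (chr5:151041009-151066517, minus strand) encodes a secreted protein that binds collagen and calcium. It held 258, 237 and 203 read ends in the controls and 46, 42 and 66 after KMT9a siRNA, with no overlap. The level was 1003 ± 181 CPM (SD, n = 2) in the controls and 279 ± 55.7 (SD, n = 3) after KMT9a siRNA. The log2 fold change was -1.88 (SE 0.26, limma adjusted p = 0.039).

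PTPRF (chr1:43996547-44089343, plus strand) encodes LAR, a receptor tyrosine phosphatase of cell contacts. It held 421, 390 and 338 read ends in the controls and 118, 69 and 152 after KMT9a siRNA. The KMT9a siRNA libraries were all lower. The level was 1654 ± 279 CPM (SD, n = 2) in the controls and 587 ± 30.7 (SD, n = 3) after KMT9a siRNA, and the fit gave -1.52 on the log2 scale (SE 0.22, limma adjusted p = 0.039).

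SLC4A7 (chr3:27414214-27498245, minus strand) encodes a sodium bicarbonate cotransporter that raises the pH of the cytosol. It held 91, 105 and 109 read ends in the controls and 12, 3 and 25 after KMT9a siRNA, again with no overlap. The level was 458 ± 17.0 CPM (SD, n = 2) in the controls and 60.9 ± 35.3 (SD, n = 3) after KMT9a siRNA. The change, -2.86 on the log2 scale (SE 0.43, limma adjusted p = 0.039), was the largest of the 5.

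TRIM8 (chr10:104404252-104418076, plus strand) encodes a RING-finger ubiquitin ligase. It held 118, 126 and 112 read ends in the controls and 32, 21 and 50 after KMT9a siRNA. The groups did not overlap. The level was 519 ± 51.6 CPM (SD, n = 2) in the controls and 177 ± 11.5 (SD, n = 3) after KMT9a siRNA, and the fit gave -1.54 on the log2 scale (SE 0.24, limma adjusted p = 0.045).

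SEMA3D (chr7:84624872-84751247, minus strand) encodes a secreted semaphorin, a guidance cue of axons and vessels. It held 165, 148 and 160 read ends in the controls and 29, 7 and 51 after KMT9a siRNA, with no overlap. Its log2 fold change was -2.34 in edgeR, where it passed (adjusted p = 0.047), and -2.46 in limma (SE 0.42), where it did not (adjusted p = 0.065).

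**Figure D4:**
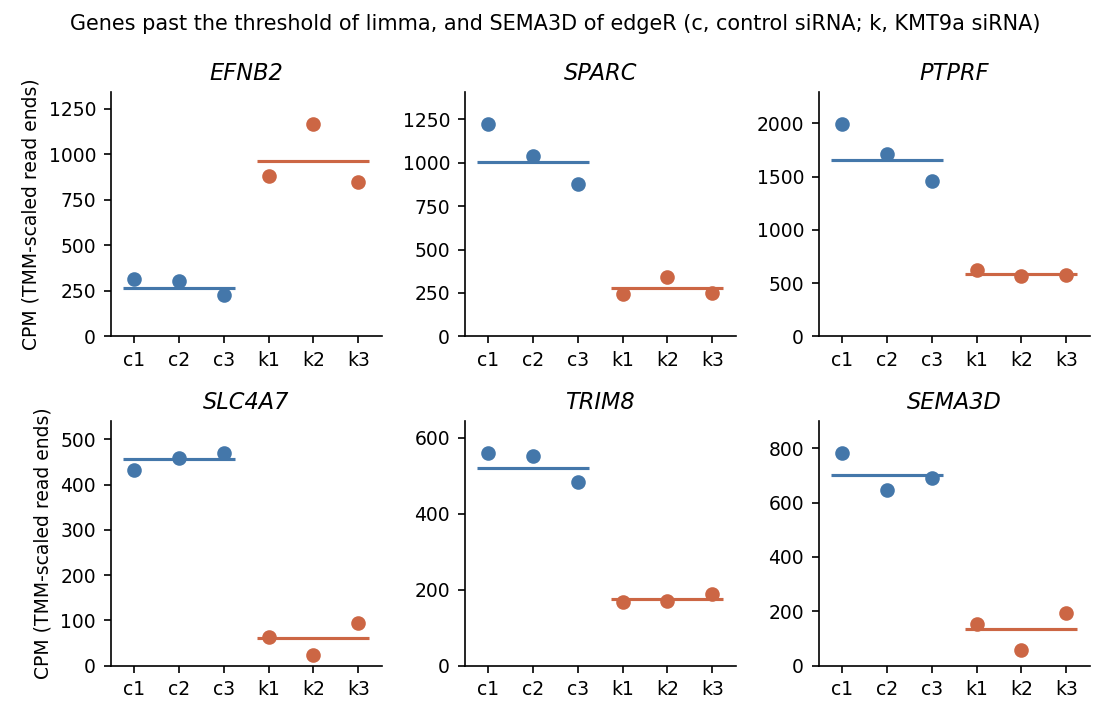
CPM of read ends (TMM-scaled, vertical axis starting at 0) of the 5 genes that passed in limma and of SEMA3D, in each control library (blue) and KMT9a siRNA library (orange); lines are means, with controls 1 and 2 counted as 1 sample. EFNB2 is the gene that was higher after KMT9a siRNA, at 966 against 268, and the groups do not overlap in any panel.

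The authors' deposited table called 18 of its 24359 gene symbols at an adjusted p under 0.05 (0.0739%), 8 higher and 10 lower, all among the 1049 genes tested here (1.72%). All 5 limma genes were among them, from the same libraries. In the authors' deposited table the log2 fold change was 1.66 for EFNB2 (adjusted p = 6.9e-07), -2.03 for SPARC (3.8e-09) and -2.73 for SLC4A7 (3.2e-09).

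Groups that do not overlap were common: 296 of the 1049 genes (28.2%) had every KMT9a siRNA library above every control (160, 15.3%) or below (136, 13%). Among those that did not pass in limma, the 6 of smallest p on each side are given. On the higher side these were FYN, a kinase of the Src family, EPB41L2, a protein of the membrane skeleton, H2AFY, which encodes the histone variant macroH2A1, EFNA3, another ephrin, MCM4 and RBMX, an RNA-binding protein. Their log2 fold changes were 1.14 to 1.81, with limma adjusted p from 0.068 to 0.11. H2AFY held 67, 57 and 80 read ends in the controls and 184, 176 and 186 after KMT9a siRNA, EFNA3 held 140, 138 and 117 and then 234, 195 and 334.

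MCM4 held 31, 34 and 32 read ends in the controls and 92, 38 and 105 after KMT9a siRNA. The second KMT9a siRNA library lay close to the controls in read ends and above them once scaled. On the lower side were SEMA3D, EXT1, a heparan sulfate polymerase, and FST, the activin-binding protein follistatin. With them were PTCH1, the Hedgehog receptor, MAF, a transcription factor, and SGK3, a kinase of the SGK family. For all of these lower genes the log2 fold changes were -2.46 to -0.92, with limma adjusted p from 0.065 to 0.14. FST held 97, 102 and 118 read ends in the controls and 14, 10 and 61 after KMT9a siRNA, and EXT1, at a far higher level, 2578, 2797 and 2648 and then 1268, 665 and 1813.

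Leaving out the second KMT9a siRNA library raised the number of called genes from 5 to 170 of 1105 tested (15.4%), 76 higher (6.88%) and 94 lower (8.51%). All 5 genes were among the 170, and edgeR on read ends without that library called 165 of the same 170. With control replicates 1 and 2 also averaged, 109 genes passed (9.86%), 49 higher (4.43%) and 60 lower (5.43%), again with all 5. All 18 genes of the authors' deposited table were among the 170. These calls share the same reads, so their overlap is not independent support.

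The genes of smallest p in that comparison, a choice made after the values were seen, included genes with clear levels in every library. CALM2, a calmodulin gene, held 164, 170 and 177 read ends in the controls and 313, 369 and 399 after KMT9a siRNA; its log2 fold change without the second library was 1.03 (SE 0.16, limma adjusted p = 3.4e-06). CALU, which encodes the calcium-binding protein calumenin, held 722, 787 and 730 in the controls and 257, 46 and 414, and the fit without that library gave -1.20 on the log2 scale (SE 0.14, limma adjusted p = 2.4e-09). For both genes all KMT9a siRNA libraries lay on the same side of the controls. These fits kept controls 1 and 2 as separate libraries. With them averaged, the limma adjusted p was 1.9e-05 for CALM2 and 1.4e-08 for CALU.

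Some genes passed without the second library, which once scaled lay nearer to the controls, among them or on their other side. The log2 fold change of KRT17 was then 1.08 (SE 0.19, limma adjusted p = 2.8e-05), against 0.69 (adjusted p = 0.42) with all 6 libraries. KCMF1, a ubiquitin ligase, held 470, 454 and 481 read ends in the controls and 206, 298 and 251 after KMT9a siRNA. Its log2 fold change was -1.05 without the second library (limma adjusted p = 4.6e-07) and -0.62 with it (0.40). VAPA, a protein of contacts between the endoplasmic reticulum and other membranes, held 102, 113 and 106 and then 10, 34 and 45. The fit without that library gave -2.22 on the log2 scale (limma adjusted p = 8.3e-09). With controls 1 and 2 also averaged, the limma adjusted p was 1.8e-05 for KRT17, 4.1e-06 for KCMF1 and 6.1e-11 for VAPA.

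The abundant groups held no called member with all 6 libraries. None of the 23 tested hnRNP genes passed in limma; 8 had every KMT9a siRNA library above every control and 1 below, against 15.3% and 13% of all genes tested, and the median log2 fold change was 0.40, against -0.07 over all genes tested. Without the second KMT9a siRNA library 7 of the 23 were called higher and 1 lower, against 6.88% and 8.51% of all genes, with a median of 0.28, against -0.01. PCBP2, of the 23, held 2300, 2612 and 2713 read ends in the controls and 3827, 4410 and 5052 after KMT9a siRNA. The fits gave 1.08 on the log2 scale (SE 0.28, limma adjusted p = 0.14) and 0.78 without the second library (adjusted p = 5.4e-07). With controls 1 and 2 also averaged, the limma adjusted p without that library was 4.9e-05. Scaling by library totals in place of TMM moved the median over all genes to -0.37 and that of the hnRNP genes to 0.08; relative to all genes the hnRNP median was 0.47 higher with TMM and 0.45 higher with library totals.

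Of 9 tested SR and TRA2 genes none passed, nor did any of 10 without the second library, and no tested SR or TRA2 gene had groups that did not overlap. Of 9 tested translation initiation factors none passed with all libraries; 5 lay wholly above the controls and 1 below (15.3% and 13% of all genes). Without the second KMT9a siRNA library 1 was called higher and 1 lower, against 6.88% and 8.51%. For PABPC1 the log2 fold change with all 6 libraries was 0.79 (SE 0.22, limma adjusted p = 0.19), and 0.62 without the second KMT9a siRNA library (adjusted p = 6.9e-06). For EIF1 these values were 1.17 (SE 0.40, limma adjusted p = 0.25) and 0.66 (adjusted p = 2.9e-05). With controls 1 and 2 also averaged, the limma adjusted p without that library was 0.0016 for PABPC1 and 0.0017 for EIF1. The share of the 10 most abundant genes of each library was higher after KMT9a siRNA by 5.42 percentage points with the second library and by 4.15 without it.

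Lists related to the called genes had few members to test. Of 16 ephrins and Eph receptors, 4 were tested, and EFNB2 was higher. In EFNB2, EFNA3 and EFNB1, 3 of the 4, every KMT9a siRNA library lay above every control, as for 15.3% of all genes tested, and in EFNA5 the groups overlapped. Of 16 genes of acid-base and bicarbonate transport only SLC4A7 was tested, and of 18 receptor tyrosine phosphatases only PTPRF. Of 16 TRIM genes 2 were tested: TRIM8 was lower, and TRIM33, a regulator of transforming growth factor signalling, held 102, 113 and 138 read ends in the controls and 46, 63 and 91 after KMT9a siRNA, with an overlap once scaled. Of 32 adhesion and matrix genes 4 were tested and SPARC was lower; FN1, fibronectin, held 64, 70 and 60 and then 96, 25 and 153, with overlapping groups. TNC, tenascin C, held 24, 15 and 30 and then 8, 2 and 9, wholly below the controls (log2 fold change -1.48, limma adjusted p = 0.23).

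The same genes were read in PC-3M, where 74.5% of all genes tested passed, and 840 of the 1021 genes tested in both lines (82.3%). EFNB2 was higher in PC-3M by 1.73 (SE 0.08) and PTPRF lower, at -1.15 (SE 0.07); the difference between the lines did not pass for either (adjusted p = 0.98 and 0.21), nor for SEMA3D (-1.86 in PC-3M, adjusted p = 0.29). SPARC was lower in both lines, at -1.88 in MCF10A and -4.58 in PC-3M. SLC4A7 and TRIM8 were lower in MCF10A and higher in PC-3M, by 1.18 (SE 0.06) and 1.07 (SE 0.07), and the difference passed for both (adjusted p = 1.6e-18 and 2.7e-22). With controls 1 and 2 averaged it also passed (adjusted p = 2.8e-11 and 7.4e-12), although neither gene passed in MCF10A then. The z statistic takes the SE as known, which makes p small with so few libraries.

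**Figure D5:**
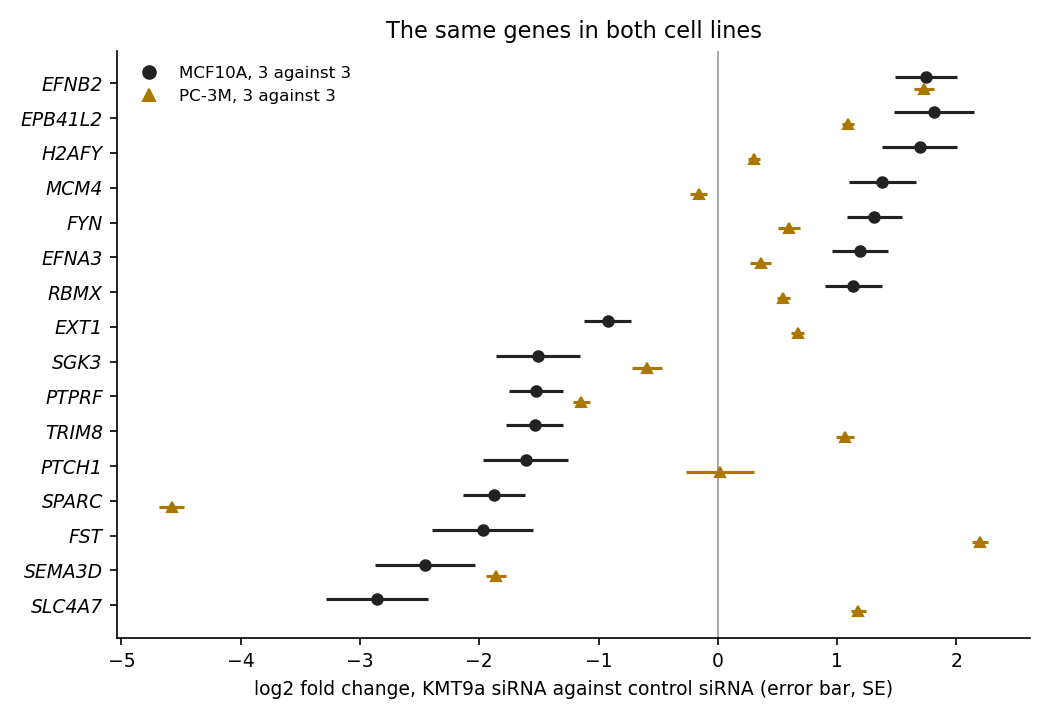
Log2 fold change after KMT9a siRNA (horizontal axis, with SE as error bar) of genes called or of smallest p in MCF10A, in the MCF10A libraries (circles) and the PC-3M libraries (triangles), 3 against 3 in each line. EFNB2 lies at 1.74 and 1.73, and SLC4A7 at -2.86 and 1.18.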

How the data were processed

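The members and gene lists were chosen with earlier results of these data known. The submitters' processing notes name STAR, HOMER, edgeR and hg19, with no versions or settings; strand handling is not given in the sources used here. The authors deposited, per line, 38763 RefSeq rows with a scaled signal per library, and their own log2 fold change and p-value. Within a tolerance of 0.1 step, 100% of values were whole multiples of a step of the library, so whole read ends were recovered; the edgeR test on them called 6 genes. The values were known from earlier results to be scaled, not raw counts, so a count test was an alternative and not the main test. Genes were kept by the filter of edgeR 4.0.16 in R 4.3.3, with minimum count 10 and total 15 (1049 genes). The main test, fitted within the MCF10A libraries, was limma 3.58.1 (limma-trend) after TMM scaling, a pseudocount of 1 and log2 transformation. This scale understates changes of low genes. Each symbol was represented by its row of highest mean; 1182 rows without annotation kept their accession. Paralogs, pseudogenes and overlapping or antisense genes can share reads. Adjusted p-values are Benjamini-Hochberg over all genes tested, with a threshold of 0.05. Differences between lines are z statistics from both fits, matched by symbol. Named genes were N6AMT1, TRMT112, all called genes, the 10 most abundant, 6 per direction of smallest p without overlap, up to 4 members per list and 4 per direction of the difference between lines; others are said to be chosen later. Alternatives were other scalings, filters, pseudocounts, thresholds, DESeq2 1.42.0, limma-voom, all rows, a replicate block, averaged controls and each library left out. Scripts were tested on simulated data. Lengths are those of the files, and GC content comes from GENCODE release 29 transcripts (96.9% of tested genes matched). Intervals and floors cover counting error only. Some members of the marker lists are not reported here.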

Additional observations from a re-analysis of the deposited data

Results flagged for a closer look

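The log2 fold change after KMT9a siRNA differed between the libraries labelled as each line for 274 of the 1021 genes tested in both (26.8%). This was a z test of the difference with adjustment over those genes. The 4 genes of smallest p on each side are given as log2 fold changes, MCF10A minus PC-3M.

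On the side where MCF10A was higher, SPARC differed by 2.70, RNF11, a RING-finger protein, by 2.20, TMED2, a cargo receptor of the early secretory pathway, by 2.13, and PTBP2, a splicing repressor of neurons, by 2.70. The last 3 fell in PC-3M (-2.53, -2.18 and -2.20) and did not pass in MCF10A (-0.34, -0.05 and 0.50). RNF11 held 471, 536 and 503 read ends in the MCF10A controls and 364, 195 and 485 after KMT9a siRNA, TMED2 held 609, 641 and 602 and then 515, 355 and 636. In read ends the groups overlapped for both; once scaled, every KMT9a siRNA library lay below every control for RNF11.

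On the side where MCF10A was lower, FST differed by -4.17, SLC44A1, a choline transporter, by -3.85, SNTB2, a syntrophin, by -2.98, and TRIM8 by -2.61. All 4 rose in PC-3M (2.20, 3.02, 1.99 and 1.07). TRIM8 fell in MCF10A; FST (-1.97, limma adjusted p = 0.11), SLC44A1 (-0.83, 0.27) and SNTB2 (-0.99, 0.23) did not pass there. The lines also differ in depth and gene content, and their part in these differences was not tested.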

How the results depend on the processing

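The count of 5 called genes moved under many alternatives. It was 1 with library totals, 66 without a filter, 48 with DESeq2, 8 with limma-voom, 0 with the replicate number as a block (153 at an unadjusted p under 0.05), 0 with control replicates 1 and 2 averaged, 0 over all transcript rows (360 at an unadjusted p under 0.05), and 0 and 10 at adjusted p under 0.01 and 0.1. It was 4 to 6 with the other pseudocounts and filter and with edgeR on read ends or pairs. Leaving out 1 library gave 0 to 170: 0 without any control (75 to 93 at an unadjusted p under 0.05) or the first KMT9a siRNA library (121), 8 without the third, 170 without the second. Chosen after seeing the data, edgeR without the second gave 171, and limma with averaged controls as well 109. The difference between lines, called for 274 genes, was called for 1298 without a filter and 234 to 350 with library totals, the stricter filter and the other pseudocounts. Added after seeing the data, it was 150 with averaged controls, 304 with the replicate block, 149 to 441 without 1 MCF10A library (435 without the second KMT9a siRNA library, 441 without the third, 149, 158 and 159 without control 1, 2 and 3) and 344 with averaged controls and without the second.

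The share of the 10 most abundant genes of each library stayed higher after KMT9a siRNA without any 1 library (4.15 to 6.43 percentage points, 1.34 over all transcript rows), and the number of genes above 0 lower (-169 to -35.5). Of 739 gene and setting pairs over 39 named genes, 3 reversed: EIF4G2 (-0.0714) and SRSF1 (-0.0719) with library totals, and TMED2 without the third KMT9a siRNA library (-0.12 to 0.018 over libraries left out). Same-numbered libraries did not deviate together (correlations -0.07, 0.14 and 0.16), so the numbers were not taken as pairs. At this depth a gene below 23.5 to 33.1 CPM may be missed.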
